A study of Mus musculus with 12 samples.

Results

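The genes described here are Arg1, Arg2, Nos2, Ass1, Slc7a2, Odc1 and Acod1, which handle arginine and make itaconate in myeloid cells. They were picked by name from the gene table, 7 of its 27457 gene symbols, and all 7 had counts. The data were UMI counts (transcripts counted through unique molecular identifiers) of 93126 single cells from MC38 tumors, a mouse colon carcinoma line of C57BL/6 origin, grown under the skin of female hosts aged 8 to 12 weeks. At a tumor size of 75 to 110 mm3 the host received a single 200 µg dose of isotype control antibody or of anti-PD-1 antibody (aPD1). After 48 h tumors were collected, frozen and sorted to 90% CD45+ and 10% CD45- cells. The question was how tumors of hosts that do and do not respond to aPD1 differ, with and without the antibody.

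Hosts were F1 animals of C57BL/6J with a Collaborative Cross (CC) strain, or C57BL/6J (B6) themselves. The study classed 3 of the F1 strains as responders from tumor growth in other animals, those with a CC001/UncJ, a CC002/UncJ or a CC075/UncJ parent. These gave 10 isotype tumors (15734 cells) and 10 aPD1 tumors (22598 cells). The 3 non-responder strains had a CC036/UncJ, a CC079/TauUncJ or a CC080/TauUncJ parent, with 9 isotype tumors (19780 cells) and 9 aPD1 tumors (17756 cells). F1 hosts with a CC007/UncJ parent and B6 hosts, in no class, gave another 5 isotype and 5 aPD1 tumors. Strains are named below by their CC number. All tumors came from the same implanted line, and an F1 host carries 1 copy of its CC parent's genome beside 1 of C57BL/6J. The 48 tumors were read in 12 pooled libraries of 4 hashtagged specimens, and the tumor was the replicate. No hashtag was used for both isotype and aPD1 tumors, so the hashtag and the antibody cannot be told apart. CC075 and CC036 tumors were only in pools 8 to 12 and CC079 tumors only in pools 1 to 5. Of 87940 barcode sequences, 4990 were in more than 1 library. Among CC080 hosts, an isotype tumor (pool 3) and an aPD1 tumor (pool 4) carry the same animal identifier.

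The deposited clusters carry numbers, and their classes were assigned here from marker genes. Clusters 2, 4, 9, 15, 17, 19, 21, 26 and 27 were macrophage-like and are called macrophages (55995 cells), and clusters 1, 3, 7, 8, 10, 12, 13, 23 and 24 were T/NK-like and are called T/NK cells (12021 cells). Cluster 16 was granulocytic-like, cluster 6 cDC1-like, cluster 11 migratory DC-like, cluster 18 pDC-like and cluster 22 fibroblast-like, each with markers of its class. Cluster 5 (12064 cells) had all 8 macrophage markers at 100 counts per 1000000 UMIs (CPM) but was led by immunoglobulin and hemoglobin genes and stays unnamed, as do clusters 14, 20 and 25. Cluster 12, of the T/NK class, had 7 of 8 macrophage markers at that level beside 6 of 8 T/NK markers. Macrophage sums held between 43594 and 10534295 UMIs per tumor (median 5396168), and T/NK sums between 6353 and 2256001 (median 560617).

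Arginine enters a macrophage largely through the transporter encoded by Slc7a2 and is then divided between competing enzymes. Inducible nitric oxide synthase (Nos2) turns it into nitric oxide and citrulline, and argininosuccinate synthase (Ass1) begins the return of citrulline to arginine. Arginase, cytosolic from Arg1 and mitochondrial from Arg2, splits arginine into urea and ornithine, which ornithine decarboxylase (Odc1) turns into putrescine, the start of the polyamines. Acod1 encodes the mitochondrial enzyme that makes itaconate from cis-aconitate of the citrate cycle; itaconate inhibits succinate dehydrogenase and can activate the transcription factor Nrf2. Interferon gamma and bacterial products are the classical inducers of Nos2 and Acod1, and IL-4 and hypoxia of Arg1. Activated lymphocytes use Odc1 for growth.

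RefSeq promoter sequences of the same build were at hand for 3 of the 7 genes, and they are shown because these genes carry the results below: Acod1 was called most often between response classes, Odc1 was the member of T cells, and Ass1 was high in both macrophages and DCs. The sequences are the 250 bases before the RefSeq start in GRCm38.p6, which lies downstream of the GENCODE gene start given further down, so that the bases nearest to it, with the Acod1 TATAAA match among them, fall inside the GENCODE gene. They are all on the plus strand, chr2:31470020-31470269 for Ass1, chr12:17544623-17544872 for Odc1 and chr14:103046762-103047011 for Acod1. Capitals mark matches to GGGNNNNNCC, the general form of a kappaB site. They also mark CACGTG, the E-box that Myc can bind. The third motif in capitals is TATAAA, the box bound by the TATA-binding protein, and all were searched on both strands with overlaps counted.
Ass1: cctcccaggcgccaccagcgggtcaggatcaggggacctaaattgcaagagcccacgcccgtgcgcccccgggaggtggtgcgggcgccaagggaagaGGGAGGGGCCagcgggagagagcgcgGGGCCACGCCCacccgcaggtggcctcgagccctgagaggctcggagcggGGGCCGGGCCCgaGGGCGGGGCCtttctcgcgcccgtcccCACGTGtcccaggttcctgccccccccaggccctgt
Odc1: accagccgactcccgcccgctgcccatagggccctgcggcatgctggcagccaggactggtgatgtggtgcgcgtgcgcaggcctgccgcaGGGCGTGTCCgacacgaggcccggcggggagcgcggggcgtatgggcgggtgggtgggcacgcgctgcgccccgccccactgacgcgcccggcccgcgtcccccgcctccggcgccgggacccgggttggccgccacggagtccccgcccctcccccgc
Acod1: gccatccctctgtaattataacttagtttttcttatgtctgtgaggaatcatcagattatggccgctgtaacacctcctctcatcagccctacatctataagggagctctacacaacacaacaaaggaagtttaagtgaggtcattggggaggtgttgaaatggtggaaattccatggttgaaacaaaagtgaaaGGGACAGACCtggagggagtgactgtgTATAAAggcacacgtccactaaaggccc
The Acod1 sequence held TATAAA 28 to 23 bases before the start and a GGGNNNNNCC match 55 to 46 bases before it. The Odc1 sequence held a GGGNNNNNCC match 159 to 150 bases before its start. The Ass1 sequence held 6 GGGNNNNNCC matches, overlapping ones included, and CACGTG 36 to 31 bases before its start. GC content was 44.4% for Acod1, 75.6% for Ass1 and 80.0% for Odc1. Of 32851 promoters of this length, 45.8% held the first motif, 6.02% the E-box and 12.4% the TATA box. No match was found to TTCNNNGAA (the STAT form, in 7.02% of promoters) or TGANTCA (the AP-1 form, in 6.75%) in these windows.

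The 7 genes lie on 6 chromosomes of GRCm38, and all are annotated as protein coding. Arg1 lies on the minus strand (chr10:24915221-24927484). The others are on the plus strand, Ass1 (chr2:31470207-31520672), Slc7a2 (chr8:40862396-40922308), Nos2 (chr11:78920787-78960254), Odc1 (chr12:17544794-17551505), Arg2 (chr12:79130777-79156301) and Acod1 (chr14:103046977-103056573). Counts are per gene symbol and do not separate isoforms.

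Most UMIs of each gene were in macrophages, which also held 62.5% of the UMIs of all genes. Macrophages held 78.6% of the 225303 Arg1 UMIs, 80.3% of the 4645 of Arg2, 79.0% of the 8519 of Nos2, 66.9% of the 77059 of Ass1, 70.5% of the 27232 of Slc7a2 and 81.6% of the 35928 of Acod1. The unnamed cluster 5 held another 16.3% of Arg1, 18.5% of Slc7a2, 16.1% of Ass1, 11.2% of Acod1, 10.9% of Nos2 and 6.52% of Arg2. Macrophages held 53.3% of the 39844 Odc1 UMIs, T/NK cells, with 8.11% of all UMIs, held 20.8% and cluster 20 held 11.1%. The sum of Ass1 was 199 CPM in macrophages, below the 384 CPM in DC cluster 11, 294 in cluster 5 and 219 in cluster 14. The sum of Odc1 was 82.1 CPM in macrophages and 247 CPM in T/NK cells. T/NK cells held between 0.498% (Arg1) and 2.36% (Ass1) of the UMIs of the other members.

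**Figure D1:**
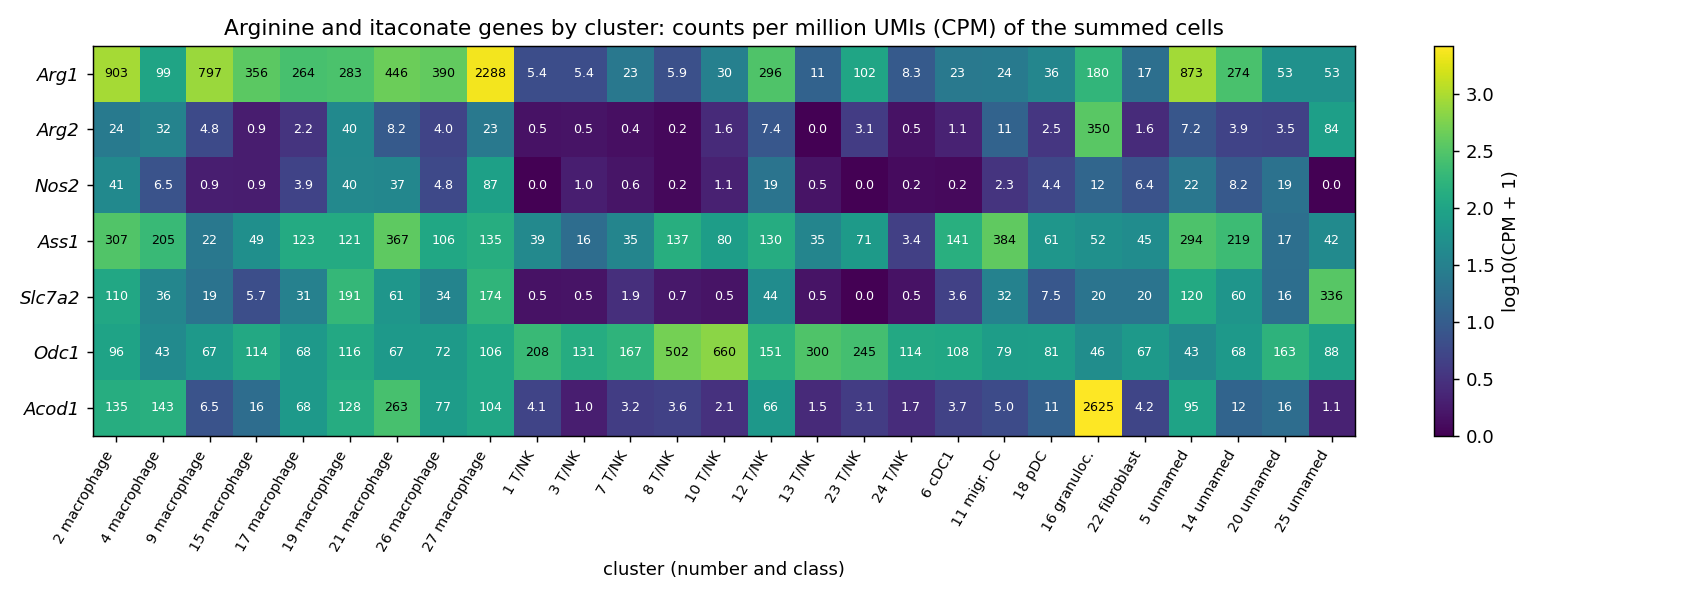
The plot of levels by cluster gives each gene's CPM in the summed cells of each of 27 clusters, with the number printed in the cell and the color on a log10(CPM + 1) scale. Arg1 stands out in macrophage cluster 27 (2288 CPM), Acod1 and Arg2 in granulocytic cluster 16 (2625 and 350 CPM) and Odc1 in T/NK clusters 10 and 8 (660 and 502 CPM).

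Arg1 was highest in cluster 27, which was led by Gpnmb, Hmox1 and Mmp12. Its level there was 2503 ± 1385 CPM (SD, n = 45 tumors with at least 20 cells of the cluster). Cluster 2, led by Cxcl2, Il1b and Osm, had 885 ± 412 CPM (n = 47), cluster 5 had 928 ± 569 (n = 47) and cluster 9, led by Lyve1 and Cd163, had 774 ± 449 (n = 20). Cluster 4, led by Ace, Adgre4 and Chil3, had the lowest sum among macrophages, 99.0 CPM. With each cell thinned to 1000 UMIs, 52.3% of cluster 27 cells had an Arg1 UMI (exact binomial 95% interval 50.8 to 53.9%; 66.5% without thinning), against 30.3% in cluster 2. T cell clusters 1 and 3 serve as background, with 0.455% and 0.654% of thinned cells and median depths of 4577.5 and 2823 UMIs beside 3763 in cluster 27. Over the 24 clusters with enough cells, only the step from cluster 27 to cluster 5 among 23 between neighbors in the order exceeded the larger of the neighbors' SDs.

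Arg2 was highest in the granulocytic cluster 16, at 456 ± 207 CPM (n = 7), and 28.1% of its thinned cells had a UMI (21.1 to 35.9%). Among macrophages, cluster 19, led by the long noncoding RNA Mir99ahg, had 40.9 ± 50.9 CPM (n = 45) and cluster 4 had 28.8 ± 19.2. Cluster 13, T cells led by Il2, Ifng and Xcl1, had no Arg2 UMI in 591 thinned cells. A limit of 3 counts allows a share of cells with a UMI of up to 0.508%, for counting error only. The step from cluster 16 to cluster 19 was again the only one of 23 beyond the larger SD.

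Nos2 was highest in cluster 27, at 95.9 ± 78.2 CPM (n = 45), where 6.83% of thinned cells had a UMI (6.06 to 7.66%). Clusters 2 (38.7 ± 52.4), 19 (38.5 ± 58.1) and 21 (43.1 ± 51.8) followed, the last led by the interferon-induced genes Ifit3 and Rsad2. No step between neighbors exceeded the larger SD. Cluster 26, the large cluster led by Cxcl13, Fcrls and C1qc, had 4.76 CPM of Nos2 in its sum.

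Ass1 was the only member with its highest level in a dendritic cell cluster. Migratory DC-like cells of cluster 11 had 386 ± 151 CPM (n = 39) and 24.3% of thinned cells with a UMI (22.1 to 26.6%), and clusters 21 (351 ± 146) and 2 (302 ± 124) lay within that spread. In the NK-like cluster 24 the share was 0.317%. Slc7a2 had 212 ± 169 CPM in cluster 19 and 209 ± 147 in cluster 27, and no step in its order exceeded the larger SD. The sum of Slc7a2 in cluster 25 was higher, 336 CPM, but came from unequal tumors, since the 2 tumors with at least 20 cells averaged 45.6 CPM.

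Odc1 was highest in T cells of cluster 10, led by Il13, Tnfsf11 and Csf2, at 621 ± 132 CPM (n = 7), followed by cluster 8, led by Foxp3, the factor of regulatory T cells, at 536 ± 227 (n = 34). Cluster 13 had 288 ± 61.3 (n = 9) and cluster 1 had 212 ± 68.4 (n = 6). An Odc1 UMI was in 39.2% of thinned cluster 10 cells and 38% of cluster 8 cells. The lowest mean was in granulocytic cluster 16, at 13.9 ± 20.2 CPM (n = 7), below clusters 4 (40.8 ± 20.1) and 5 (44.2 ± 17.3), but this order did not hold in sums over all cells, which gave 46.2 CPM in cluster 16 and 42.8 in clusters 4 and 5.

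Acod1 was highest in cluster 16, which was led by S100a9, Retnlg and G0s2, at 3564 ± 1512 CPM (n = 7), and 52.3% of thinned cells had a UMI (44.1 to 60.4%). Cluster 16 held 529 cells in 47 tumors, at most 115 in a tumor, with a median of 815 UMIs, and thinning left out 71.1% of them. Macrophage cluster 21 came next, at 267 ± 117 CPM (n = 45; 16.4% of thinned cells), then clusters 4 (180 ± 201) and 2 (132 ± 104). T cell cluster 3 had a UMI in 0.115% of cells (0.0238 to 0.337%). The step from cluster 16 to cluster 21 was the only one of 23 beyond the larger SD. Summed over tumors of a class, cluster 16 held 2747 CPM of Acod1 and 359 CPM of Arg2 in responders (325 cells) and 2608 and 327 CPM in non-responders (151 cells).

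Within macrophages the genes were not spread alike over cells. Nos2 had a UMI in 4.63% of the 12861 thinned macrophages with an Arg1 UMI (4.27 to 5.00%) and in 1.11% of the 40461 without it, and the first share was higher in 43 of 47 tumors. Of the 1046 Nos2-positive cells, 33.3% also had Acod1 (30.4 to 36.2%), against 7.43% of the rest (higher in 33 of 47 tumors). For Slc7a2 these shares were 29.2% and 5.41% (40 of 47 tumors), and for Ass1 29.1% and 14.8% (29 of 47). Acod1 was in 8.34% of cells with Arg1 and 7.81% of cells without it (higher in 20 of 47 tumors). Within single clusters the sizes varied. Nos2 was in 5.61% of cells with Arg1 and 1.63% of those without it in cluster 2 (higher in 35 of 47 tumors), 9.29% and 4.12% in cluster 27 (32 of 47), 5.37% and 2.44% in cluster 21 (24 of 46) and 2.58% and 1.35% in cluster 5 (18 of 47). Cluster 5 held only 182 Nos2-positive thinned cells, 85 of them with Arg1, and a tumor without the latter could not be higher. Acod1 was in 39.9% of Nos2-positive cells and 8.65% of the rest in cluster 2 (25 of 39 tumors), 37.9% and 6.28% in cluster 5 (28 of 36), 37.9% and 15.7% in cluster 21 (22 of 41) and 13.7% and 6.87% in cluster 27 (17 of 43). In cluster 27 Acod1 was in 5.77% of cells with Arg1 and 9.04% of those without it (higher with Arg1 in 16 of 47 tumors). These shares were 10.6% and 9.05% in cluster 2 (24 of 47), 7.88% and 6.34% in cluster 5 (29 of 47) and 16.6% and 16.3% in cluster 21 (23 of 46). These intervals cover counting error only, and cells of a tumor are not replicates.

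Between response classes, Acod1 had the smallest p of the members in macrophages. It lay just outside the threshold in the main edgeR fit, which had no pool term. Acod1 ranged from 26.9 to 365 CPM in responder tumors (median 113, n = 20) and from 25.1 to 205 CPM in non-responder tumors (median 60.7, n = 18). The groups overlapped: 6 of the 20 responder tumors were above every non-responder tumor. The log2 difference, responder minus non-responder over both antibodies, was 0.95 ± 0.30 (SE; edgeR quasi-likelihood test, adjusted p = 0.0526). With the pool as a block it was 0.97 (adjusted p = 0.0390; 8.03% of genes called), with DESeq2 0.97 (0.0252; 7.55% called) and with cluster 5 added to the macrophages 0.94 (0.0457). Without cluster 4 it was 0.98 (adjusted p = 0.0474) and in clusters 2, 5 and 26 alone 1.01 (0.0455). It did not pass with library sizes alone (0.92, 0.0558), DESeq2 size factors in edgeR (0.96, 0.0518) or no filter on low counts (0.95, 0.0613). Nor did it pass without tumors of under 500 cells (0.90, 0.0757) or the CC080 pair of shared identifier (0.89, 0.0867). Without CC001 it was 1.23 (adjusted p = 0.0196), without CC002 1.12 (0.0333) and without CC036 1.17 (0.0371). Without CC075 it was 0.42 (adjusted p = 0.441), without CC079 0.81 (0.179) and without CC080 0.96 (0.0920). Tumors of a strain are not independent replicates of its class, and with counts summed per strain, 3 against 3, it was 1.03 (adjusted p = 0.897). In pools 8 to 12 alone it was 1.22 (adjusted p = 0.123) and in pools 1 to 5 alone 0.52. In a sum over macrophages, fewer cells of a kind and less RNA per cell cannot be told apart.

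None of the 7 members passed the threshold in this comparison, beside 689 of 11598 genes (5.94%; 402 higher and 287 lower in responders, and 312 higher and 514 lower without TMM, the scaling of library sizes). Nos2 ranged from 4.83 to 150 CPM in responders (median 27.4) and from 2.89 to 88.1 in non-responders (median 8.30). Its log2 difference was 1.05 ± 0.47 (adjusted p = 0.195), and without CC036 it was 1.63 (adjusted p = 0.0470), without CC075 0.38 (0.714) and without CC079 0.62 (0.542). Arg1 ranged from 258 to 1298 CPM in responders (median 579) and from 202 to 2034 in non-responders (median 766), a log2 difference of -0.45 ± 0.25 (adjusted p = 0.316). For Odc1 it was -0.30 ± 0.12 (adjusted p = 0.133), with the pool as a block -0.21 (0.0479) and without CC079 -0.47 (0.0181). Without CC036 the Odc1 value was -0.04. Ass1 stood at 0.43 ± 0.21 (adjusted p = 0.242), Arg2 at -0.10 ± 0.36 (0.933) and Slc7a2 at -0.05 ± 0.32 (0.977). Macrophage markers, 8 genes with none at 0, summed to between 9314 and 31052 CPM per tumor in these macrophages, with group medians between 15551 and 16349. T/NK markers summed to between 3.01 and 53.8 CPM. In aPD1 tumors the 5 cDC1 markers, none at 0, ran from 269 to 478 CPM in responders (median 390) and from 218 to 347 in non-responders (median 278). The 5 pDC markers had medians of 552 and 445 CPM there (428 to 676 and 300 to 638), and the 7 granulocytic markers 108 and 84.6 CPM (78.6 to 177 and 67.4 to 178). The cDC1 list includes Irf8, which was itself higher in responder macrophages, as given further down. In macrophage cluster 26 only 2 of the 5 cDC1 and 1 of the 5 pDC markers reached 100 CPM. The part of any of these marker lists in the differences was not tested.

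**Figure D2:**
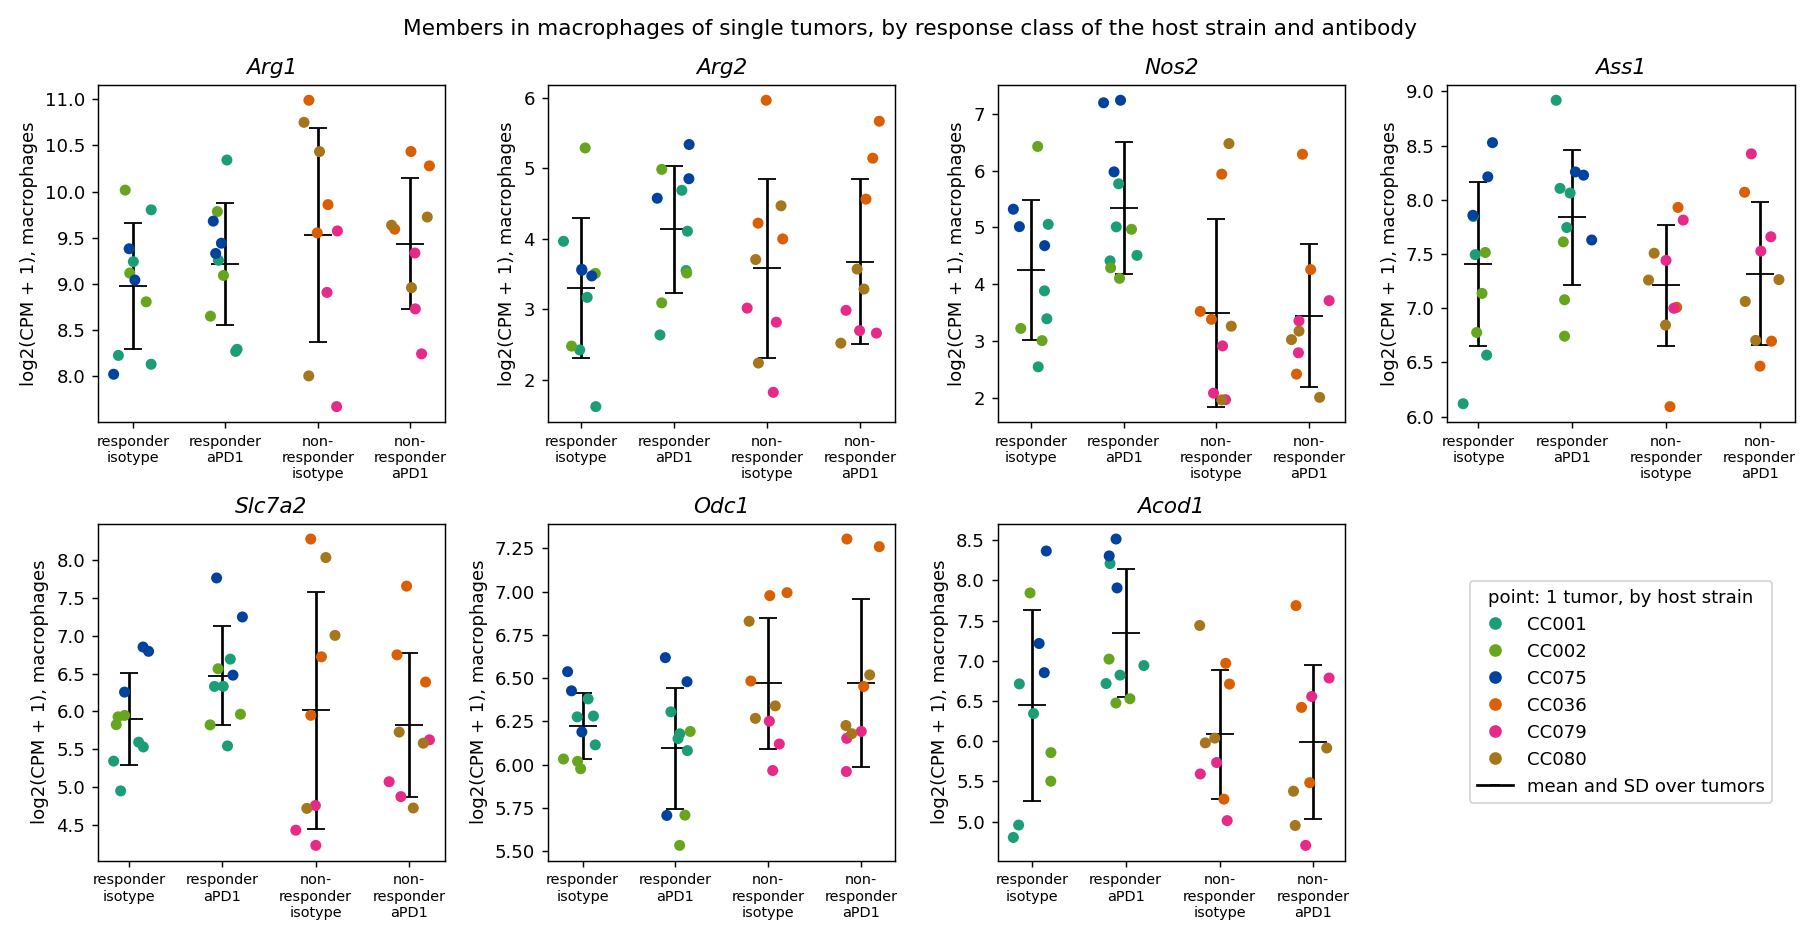
The plot of macrophage levels by class and antibody shows each of 38 tumors as a point, colored by host strain, on a log2(CPM + 1) scale, with the mean and SD of each group. For Acod1 and Nos2 the CC075 aPD1 tumors lie at or near the top of the responder aPD1 group, and for Arg2, Slc7a2 and Odc1 the CC036 tumors are among the highest of the non-responders.

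In isotype tumors no member passed the threshold between classes. Acod1 ranged from 26.9 to 329 CPM in responder isotype tumors (median 92.0) and from 31.3 to 172 in non-responder ones (median 62.0). Nos2 ranged from 4.83 to 85.0 CPM (median 19.2) and from 2.89 to 88.1 (median 8.58). Arg1 ranged from 258 to 1035 CPM (median 540) and from 202 to 2034 (median 761), a log2 difference of -0.74 ± 0.35. The groups overlapped for all 7 genes. Adjusted p-values of the members ran from 0.726 to 1, beside 35 genes called (0.302%).

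In aPD1 tumors Nos2 and Acod1 had the smallest p of the members, and whether they passed the threshold depended on the fit and on the strains and cells in it. Nos2 ranged from 16.2 to 150 CPM in responder aPD1 tumors (median 30.7) and from 3.02 to 77.2 in non-responder ones (median 8.02), and 7 of the 9 non-responder tumors were below every responder tumor. The log2 difference was 1.82 ± 0.64 (edgeR adjusted p = 0.0857), 1.95 with the pool as a block (0.0253) and 2.89 without CC036 (0.0168). It was 0.86 without CC075 (adjusted p = 0.561), 1.54 without CC079 (0.271) and 1.45 without CC080 (0.234). Acod1 ranged from 87.9 to 365 CPM in responders (median 125) and from 25.1 to 205 in non-responders (median 59.3), and 6 of 9 non-responder tumors were below every responder tumor. Its log2 difference was 1.34 ± 0.43 (adjusted p = 0.0561), 1.41 with the pool as a block (0.0215), 1.35 with DESeq2 (0.0293; 7.41% called) and 1.36 with cluster 5 added (0.0399). When 1 strain was left out, its adjusted p ran from 0.0308 (without CC002) to 0.282 (without CC075). For the other members, Ass1 gave 0.56 (adjusted p = 0.270), Odc1 -0.36 (0.203) and Arg1, Arg2 and Slc7a2 adjusted p-values of at least 0.514. Arg2 passed without CC036 (1.53, adjusted p = 0.0409), and in the other fits without a strain its adjusted p was at least 0.563. The threshold was passed by 622 genes (5.36%), none of them a member, and with the pool as a block by 1138 (9.81%), which included Nos2 and Acod1.

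The antibody effect itself was not called for any member. In responder strains aPD1 minus isotype was 1.39 ± 0.63 on the log2 scale for Nos2 (edgeR adjusted p = 0.797), 1.12 ± 0.50 for Arg2 (0.795) and 0.78 ± 0.41 for Acod1. The unadjusted edgeR p-values of this fit, which had no pool term, were 0.0336 for Nos2, 0.0302 for Arg2 and 0.0671 for Acod1. With the pool as a block they were 0.0187, 0.00266 and 0.0339, with adjusted p-values of 0.41, 0.349 and 0.43. Paired within strain and pool, Slc7a2 was higher in the aPD1 tumor in 9 of 10 responder pairs, Arg2, Nos2 and Acod1 in 8, Ass1 in 7, Arg1 in 6 and Odc1 in 3. In non-responder strains the counts of 9 pairs were 6 for Slc7a2 and Ass1, 5 for Arg1, 4 for Arg2, Nos2 and Acod1 and 3 for Odc1. The difference between the classes' antibody effects, which is also the difference between the class effects in aPD1 and isotype tumors, was 1.54 ± 0.93 for Nos2 and 1.21 ± 0.63 for Slc7a2, with edgeR adjusted p-values of at least 0.914 for all members. In the 3 tests edgeR called 0 of 11598 genes (0.0%), with 708 genes at an unadjusted p under 0.05 in responders, 96 in non-responders and 608 for the difference. DESeq2 called 0, 0 and 1.

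Between host strains, differences were called for all members but Arg1. The strain test over all 48 tumors, with the antibody as a term, called 6 of 7 members among 6233 of 12272 genes (50.8%). Slc7a2 passed with adjusted p = 0.000686, Odc1 with 0.000753, Arg2 with 0.00160, Acod1 with 0.00412, Nos2 with 0.00530 and Ass1 with 0.0473 (edgeR), and Arg1 did not (0.166). With the pool as a block the test called 1484 genes (12.1%) and Acod1 alone among the members (adjusted p = 0.0310). The block compares tumors within pools, and each pool held 2 strains. In isotype tumors alone Slc7a2 was called (adjusted p = 0.0321; 868 genes, 7.01%), and in aPD1 tumors alone Nos2 (0.0008), Slc7a2 (0.0024), Acod1 (0.0103) and Arg2 (0.0141; 3310 genes, 27%).

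CC075 hosts had the highest macrophage Acod1, Nos2 and Ass1. In their 6 tumors Acod1 was 115, 148 and 329 CPM with isotype and 239, 315 and 365 CPM with aPD1, a mean of 251 ± 102. B6 followed with 149 ± 50.7 (n = 6) and CC079 was lowest with 59.7 ± 34 (n = 6). The step from B6 to CC075 was the only one of 7 in the strain order beyond the larger SD. It was so by a very small margin, with means of 148.75 and 251.47 CPM and an SD of 102.45. Nos2 in CC075 was 24.6, 31.3 and 39.0 CPM with isotype and 62.0, 146 and 150 CPM with aPD1. CC079 had 6.65 ± 3.53 CPM of Nos2 and B6 32.1 ± 20.1. Ass1 was 282 ± 60.3 CPM in CC075, from 197 to 368, and 139 ± 28.5 in CC080, the lowest.

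CC036 hosts, a non-responder strain, had the highest Arg1, Arg2, Odc1 and Slc7a2. Arg2 in CC036 was 15, 17.7 and 61.5 CPM with isotype and 22.6, 34.4 and 49.9 with aPD1, a mean of 33.5 ± 18.8. In CC079, also a non-responder strain and the lowest for Arg2, all 6 tumors had between 2.54 and 7.10 CPM (5.57 ± 1.65). Odc1 was 88.5, 125 and 127 CPM with isotype and 86.6, 152 and 157 CPM with aPD1 in CC036, and 59.8 ± 9.77 CPM in CC002, the lowest strain. Slc7a2 was 60.8, 105 and 310 CPM with isotype and 82.8, 107 and 201 CPM with aPD1 in CC036. It was at most 48.3 CPM in CC079, the lowest strain (mean 28.9 ± 10.9). CC075 was close to CC036 for Slc7a2, at 126 ± 51.4 CPM. The 310 CPM of CC036 was from a sum over 256 macrophages, and apart from it only the CC036 tumor at 201 CPM exceeded that CC075 mean. Arg1 was 1184 ± 488 CPM in CC036 and 468 ± 208 in CC079. In strain order, 0 of 7 steps of Arg1, Arg2, Nos2, Ass1 and Odc1 exceeded the larger SD, and 1 of 7 for Slc7a2, from CC079 to CC001.

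**Figure D3:**
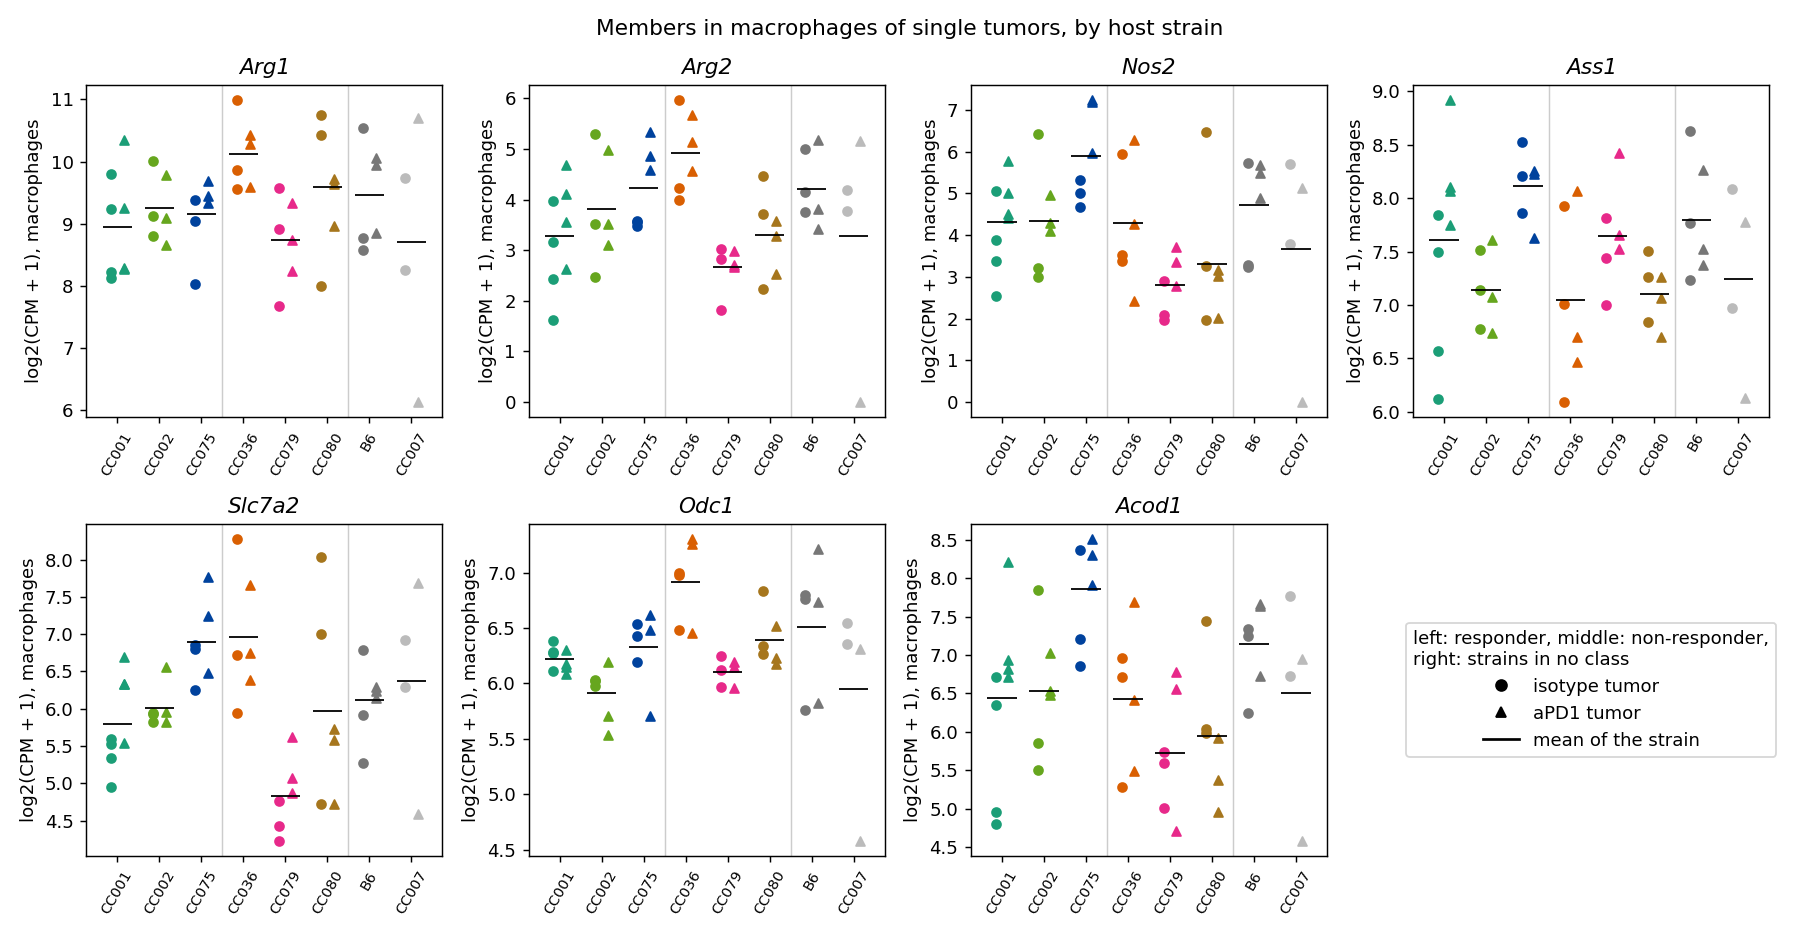
The plot of macrophage levels by strain shows each of 48 tumors on a log2(CPM + 1) scale, circles for isotype and triangles for aPD1, with a line at the strain mean. CC075 is highest for Nos2, Ass1 and Acod1, CC036 for Arg1, Arg2, Slc7a2 and Odc1, and the lowest CC007 point of most panels is a tumor of 27 macrophages.

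Tested in single clusters, Acod1 was higher in responders in 3 macrophage clusters and in the unnamed cluster 5. In cluster 2 Acod1 ranged from 35.4 to 476 CPM in responder tumors (median 120) and from 24.1 to 220 in non-responder ones (median 59.5), a log2 difference of 1.11 ± 0.31 (adjusted p = 0.0290; 3.66% of genes called, 2.31% higher). In cluster 26 it ranged from 8.96 to 263 CPM (median 73.1) and from 1.64 to 151 (median 34.7), a difference of 1.26 ± 0.36 (adjusted p = 0.0215; 7.64% called, 4.9% higher). In cluster 19 it ranged from 0 to 607 CPM (median 130) and from 0 to 136 (median 46.5), and 9 of 19 responder tumors exceeded all non-responder ones, a difference of 1.94 ± 0.40 (adjusted p = 0.00855; 0.351% called, 0.195% higher). The counts behind cluster 19 were low, 383 Acod1 UMIs over responder and 114 over non-responder tumors. In the unnamed cluster 5 it ranged from 3.86 to 236 CPM (median 104) and from 16.6 to 148 (median 60.4), a difference of 0.87 ± 0.26 (adjusted p = 0.0379; 4.17% called, 2.79% higher). In the other 4 clusters tested the Acod1 value was also above 0, between 0.56 (cluster 21, adjusted p = 0.121) and 1.14 (cluster 4, 0.221), without passing. In cluster 21 it passed without CC002 (0.69, 0.0394) or CC036 (0.66, 0.0418). Without CC075 the Acod1 difference was 0.53 in cluster 2 (adjusted p = 0.410), 0.54 in cluster 5 (0.413) and not called in cluster 26 (0.252), and in cluster 19 the gene then missed the filter on low counts. The clusters came from the same tumors, so calls in several of them are not separate results. Tumors of a strain are not independent replicates of its class. For single clusters, a fit of counts summed per strain was not run for any member.

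Nos2 was called in cluster 21, the interferon-led cluster, and Ass1 in cluster 26. Nos2 there ranged from 8.32 to 303 CPM in responder tumors (median 38.3) and from 0 to 134 in non-responder ones (median 9.89), and 8 of 17 non-responder tumors were below every responder tumor. The log2 difference was 1.71 ± 0.41 (adjusted p = 0.0127; 1.72% of genes called, 1.29% higher), and without CC079 it was 1.48 (0.157). Without CC075 Nos2 missed the filter on low counts in this cluster and in cluster 5, so that neither could be fitted. In cluster 27, where Nos2 was highest, its difference was 0.61 ± 0.32 and was not called (edgeR adjusted p = 0.502). Ass1 in cluster 26 ranged from 39.8 to 324 CPM (median 139) and from 25.3 to 158 (median 69.5), a difference of 0.84 ± 0.26 (adjusted p = 0.0355), not called without CC001 (0.0914), CC036 (0.0649), CC075 (0.227) or CC080 (0.198). With the pool as a block Nos2 was also called in clusters 2 (2.03, adjusted p = 0.00919; 8.83% of genes called; without the block 1.48, 0.0994) and 5 (1.38, 0.0364; 5.35% called; without the block 1.11, 0.145), Acod1 in cluster 21 (0.62, 0.0373; 2.79% called) and Odc1, lower in responders, in cluster 2 (-0.35, 0.00415). Without the block, Nos2 in cluster 2 was 0.80 without CC075 (adjusted p = 0.515) and 0.95 without CC079 (0.405), and in cluster 5 it was 0.57 without CC079 (0.619). It passed in cluster 2 without CC001 (1.83, 0.0488) or CC080 (1.87, 0.0309), in cluster 5 without CC001 (1.51, 0.0242) or CC036 (1.94, 0.0118), and in cluster 26, where it missed the filter on low counts with all strains, without CC036 (3.04, 0.00173) or CC080 (1.96, 0.0387) but not without CC079 (1.64, 0.156). Arg2 passed in cluster 2 without CC036 (0.94, 0.0292). The other Acod1 calls were lost without CC079 in clusters 2 (0.89, adjusted p = 0.178), 5 (0.69, 0.230), 19 (1.90, 0.124) and 26 (1.10, 0.160). They were also lost without CC080 in clusters 5 (0.75, 0.140), 19 (1.77, 0.0618) and 26 (1.12, 0.0637), without CC002 in cluster 5 (0.98, 0.0517) and without CC036 in cluster 19 (2.25, 0.0593).

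Arg1 and Odc1 had values below 0 in most clusters without a call. In cluster 26 Arg1 stood at -0.95 ± 0.32 (adjusted p = 0.0610), passing without CC079 (-1.39, 0.00735) or without TMM (-1.03, 0.0333), and at -0.43 without CC036 (0.498). Odc1 was below 0 in 13 of 14 clusters tested, and in cluster 2 at -0.43 ± 0.14 (adjusted p = 0.0626), passing without CC075 (-0.56, 0.0312), CC079 (-0.63, 0.00649) or TMM (-0.47, 0.0460), and at -0.14 without CC036 (0.481). Within macrophages the share of cluster 26 was 34 ± 11.2% in responders and 26.7 ± 10.6% in non-responders, of cluster 2 33.5% and 33.4% and of cluster 4 6.91% and 10.0%. Their part in the summed values was not tested.

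**Figure D4:**
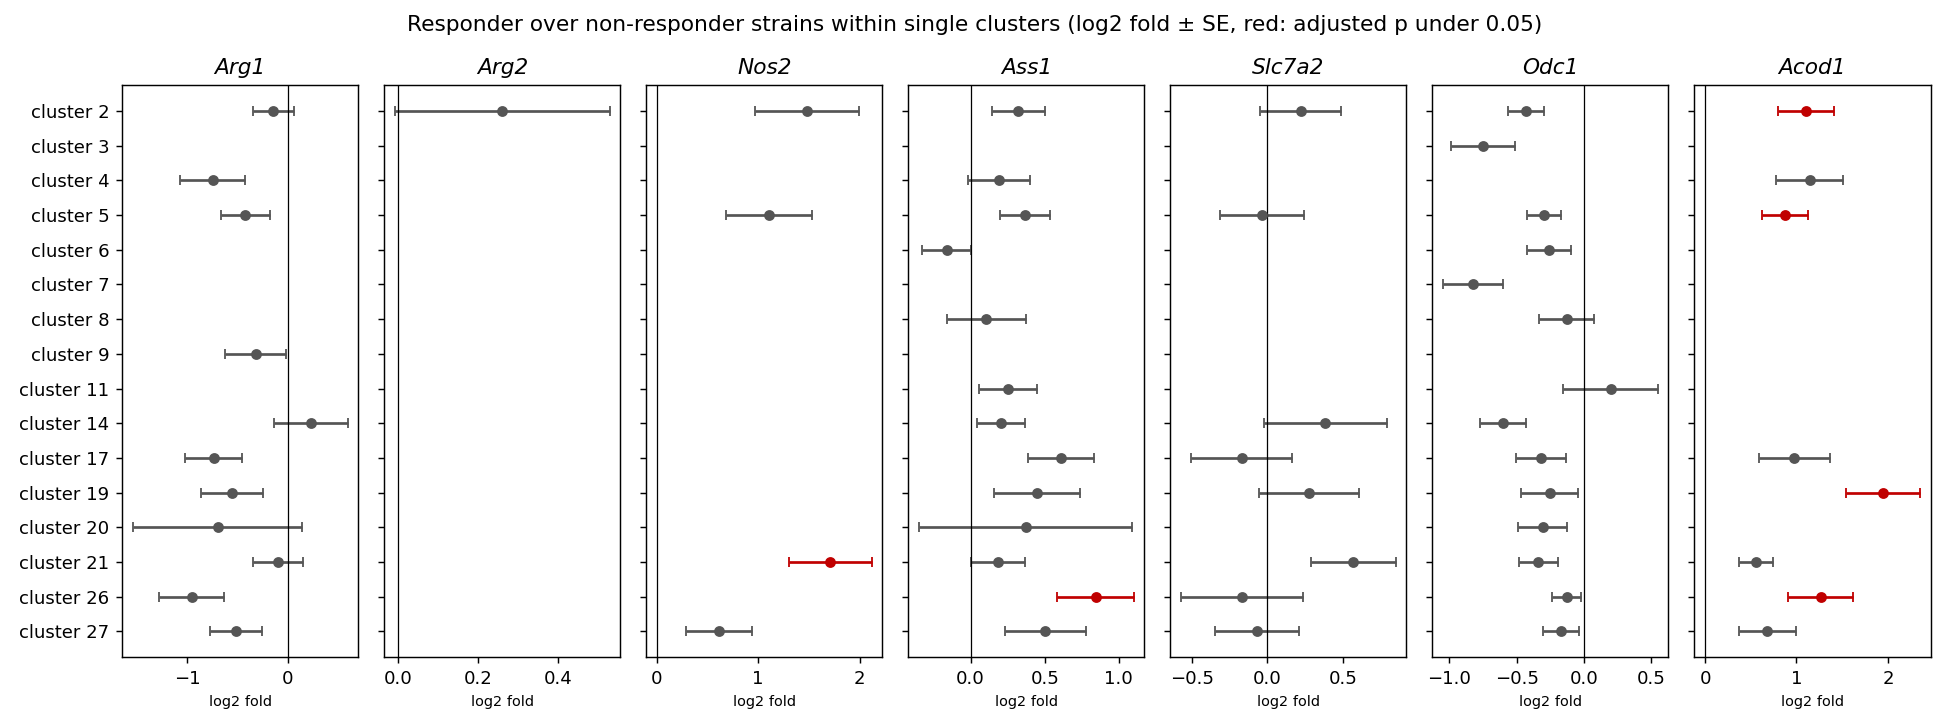
The plot of single clusters gives the log2 difference, responder minus non-responder, with its SE for each gene and each cluster in which it passed the filter on low counts, red where the adjusted p was under 0.05. The 6 red points are Acod1 in clusters 2, 5, 19 and 26, Nos2 in cluster 21 and Ass1 in cluster 26, all to the right of 0.

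In T/NK cells Odc1 was lower on average in tumors of the responder strains than in those of the non-responder strains. Odc1 ranged from 104 to 370 CPM in the 20 responder tumors (median 208) and from 153 to 533 CPM in the 18 non-responder tumors (median 306.5); 7 non-responder tumors were above every responder tumor and 4 responder tumors below every non-responder tumor. The log2 difference was -0.58 ± 0.13 (edgeR adjusted p = 0.00926), 1 of 161 calls among 7219 genes (2.23%; 94 of them lower in responders, 1.3%). By group the medians were 186 CPM in responder isotype, 212.5 in responder aPD1, 293 in non-responder isotype and 373 in non-responder aPD1 tumors. By strain the level was 178 ± 39.9 CPM in CC075, 184 ± 42.3 in CC002 and 249 ± 84.1 in CC001, and 262 ± 79.4 in CC080, 331 ± 51.3 in CC079 and 381 ± 87.7 in CC036. All responder means were below all non-responder means, and CC001 and CC080 lay within each other's SD. Without CC002 the call was lost (adjusted p = 0.0939), as it was without CC036 (0.0782), CC075 (0.0572) or CC079 (0.0529), and in pools 1 to 5 alone the value was -0.35 (0.294). Tumors of a strain are not independent replicates of its class, and a fit of counts summed per strain was not run for T/NK cells.

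The makeup of T/NK cells is given beside this result. The Foxp3-led cluster 8, of high Odc1, was 16.3 ± 9.2% of T/NK cells in responders and 29.4 ± 17.0% in non-responders, and cluster 3, led by Cd8a and Cd8b1 among others and with 131 CPM of Odc1, was 31.5 ± 11.4% and 10.3 ± 7.7%. Without clusters 8 and 10 the Odc1 difference was -0.57 (adjusted p = 0.00105), with cluster 3 still in the sum, and the part of the makeup in the difference was not tested. Within single clusters Odc1 stood at -0.75 in cluster 3 (adjusted p = 0.182), -0.83 in cluster 7 (0.103) and -0.13 in cluster 8 (0.871; 489 ± 195 CPM in responders, 549 ± 255 in non-responders). The 8 macrophage markers in T/NK sums, none of them at 0, had medians of 562 and 614 CPM in responder isotype and aPD1 tumors and 545 and 1405 CPM in non-responder ones (142 to 4023 over single tumors), and their part in the Odc1 difference was not tested. Of the other members, Ass1 (-0.49 ± 0.28, adjusted p = 0.424) and Arg1 (-0.50 ± 0.37, 0.591) passed the filter on low counts in T/NK cells, and Arg2, Nos2, Slc7a2 and Acod1 did not.

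**Figure D5:**
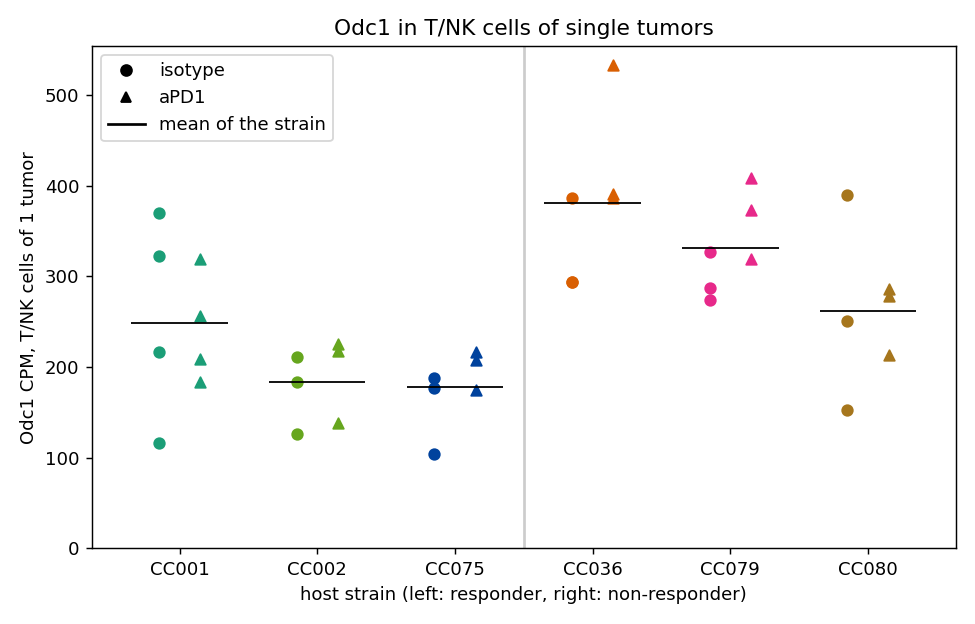
The plot of Odc1 in T/NK cells gives the CPM of each of 38 tumors by host strain, circles for isotype and triangles for aPD1, with a line at the strain mean. The strain means run from 178 CPM in CC075 to 381 CPM in CC036, and the 3 responder strains are left of the gray line.

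The genes around the members were followed in 6 lists. Of 12 tested genes of arginine transport and the urea cycle, 1 was lower in responder macrophages, Slc7a1, the constitutive arginine transporter, at 14.1 ± 3.5 CPM in responders and 20.2 ± 5.2 in non-responders (log2 difference -0.44 ± 0.11, adjusted p = 0.0121). Of 9 tested genes of nitric oxide synthesis and its cofactors, 1 was lower, Ddah2, which clears methylated arginines (-0.47 ± 0.13, adjusted p = 0.0241). Of 10 genes of inducing pathways, 1 was higher, Irf8, an interferon-induced transcription factor (0.33 ± 0.08, adjusted p = 0.00798). None of the 14 polyamine genes, 16 genes of itaconate and citrate or 8 Nrf2 targets tested was called. That is 3 of 69 genes beside 5.94% of all, and with the pool as a block it was 5 beside 8.03% of all, Gamt and Gch1 added. The medians of the lists lay between -0.08 and 0.11, beside -0.01 for all genes. Slc7a1 was not called without CC001 (adjusted p = 0.0534) or CC036 (0.162), Ddah2 without CC036 (0.0757), CC075 (0.112) or CC080 (0.105), and Irf8 without CC079 (0.0886). After aPD1, 3 of the 69 were called beside 5.36% of all genes, and among them Slc7a1 was lower (-0.51 ± 0.16, adjusted p = 0.0478) and Irf8 higher (0.46 ± 0.11, 0.0102) in responders. The Slc7a1 call was lost without any of the 6 strains (adjusted p between 0.0545 and 0.230). Under the block 10 of 69 were called there (9.81% of all genes), among them Gamt, Idh2, Idh3a, Oat and Srm, lower in responders, and Irf1 and Nfe2l2, higher.

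Across host strains 42 of 70 tested genes of the lists differed, beside 50.8% of all genes, 8 of 12 in arginine transport and the urea cycle, 5 of 10 in nitric oxide synthesis, 9 of 14 polyamine genes, 7 of 16 in itaconate and citrate, 5 of 8 Nrf2 targets and 8 of 10 in inducing pathways. Gatm, which uses arginine for creatine, ran from 237 CPM in CC079 to 917 CPM in CC002 (adjusted p = 1.21e-11), and Gamt, the next enzyme of creatine synthesis, from 11.7 CPM in CC007 to 31.5 in CC079 (1.03e-06). Of the 4 CC007 tumors, 1 was a sum over 27 macrophages with 43594 UMIs. There 1 UMI was 22.9 CPM, so the CC007 place of a gene at low level is uncertain. Qdpr, which recycles the cofactor of nitric oxide synthase, was lowest in CC075, at 27.1 CPM, and highest in CC036 (1.62e-06), and Gch1, which starts its synthesis, from 65.5 in CC001 to 120 in CC007 (0.000707). Among polyamine genes, Azin1, the antizyme inhibitor that protects ornithine decarboxylase, ran from 86.5 CPM in CC079 to 183 in CC036 (8.14e-05), and Paox, a polyamine oxidase, from 8.35 in CC075 to 21.9 in CC001 (8.54e-05).

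Clybl, which degrades the itaconate-derived citramalyl-CoA, ran from 9.77 CPM in CC007 to 31.2 in CC036 (adjusted p = 1.72e-05). The CC007 value again includes the tumor of 27 macrophages. Of the Nrf2 list, Nfe2l2 itself ran from 197 CPM in CC080 to 353 in B6 (1.65e-05), and its targets Txnrd1 (52.5 to 120 CPM, 1.27e-05) and Slc7a11, the cystine transporter (37.8 to 144 CPM, 0.00110), ran from CC079 to CC075. Of the inducing pathways, Nfkb1 (128 CPM in CC079 to 231 in CC036, 0.000333) and Stat3 (110 CPM in CC079 to 201 in CC075, 0.000733) also had their lowest mean in CC079, the strain of lowest Acod1, Nos2, Slc7a2, Arg1 and Arg2. Oaz2, Ddah2, Idh2 and Suclg2 were also among the genes of smallest p in their lists, with adjusted p between 0.00105 and 0.00390. With the pool as a block 9 of these 70 genes were called, beside 12.1% of all genes. Among them were Gatm (1.63e-07), Qdpr (9.34e-07), Clybl, Ddah2, Irf8, Nfe2l2, Slc7a1 and Suclg2. In T/NK cells 1 of 53 list genes tested was called between classes, beside 2.23% of all genes. It was Il4ra, a receptor chain for IL-4 (-0.52 ± 0.13, adjusted p = 0.0230), named after its value was seen. Il4ra was not called without CC002 (0.130), CC036 (0.104) or CC079 (0.0784). The block added Nfe2l2, lower in responders, and Stat3, higher, in T/NK cells (3 of 53). The number of all genes called in T/NK cells under the block is given further down with its total. Whether 3 of 53 exceeds that background was not tested.

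The genes whose pattern was most like a member's were found by Pearson's r of log2(CPM + 1), as a description. Over the 27 clusters, which share libraries, Acod1 was most like Il1a (0.94), Hcar2 and Csf3r, Nos2 like Inhba (0.89), F10 and Slc2a1, Arg1 like Arl11 (0.93), C3ar1 and Trem2, and Odc1 like Ccr8 (0.87), Tff1 and Penk. Arg2 was most like Sgms2 (0.88), Fbxl5 and Tnrc18, Ass1 like Bcl2a1a (0.81), Gm2a and Ube2l6, and Slc7a2 like F11r (0.92), Rin2 and Tmem51. Over the macrophages of 47 tumors, Acod1 was most like Slamf7 (0.88), Gm36043 and Cd274, which encodes PD-L1 (0.86), and Nos2 like Grina (0.91), Cd274 (0.83) and Acod1 (0.81). Odc1 was most like Gclc (0.84), Azin1 (0.83) and Hsp90aa1, Arg1 like Srgn (0.81), Xdh and Nfil3, Arg2 like Dusp5 (0.91), Rnf149 and Bcl2l11, Ass1 like Il2rg (0.80), Prdx5 and Sod2, and Slc7a2 like Pfkp (0.84), Fmnl2 and Rnf19b. Among the members themselves r was 0.75 for Nos2 with Slc7a2, 0.71 for Arg2 with Slc7a2, 0.12 for Acod1 with Arg1 and -0.11 for Arg1 with Ass1. The tumors share strains and pools, so they are not independent points.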

How the data were processed

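The authors deposited raw UMI counts per gene and cell, with tables of barcodes, gene symbols and, as text of other kinds, each cell's pool, antibody, animal, strain, hashtag and cluster number. Reads of 10x 5′ libraries were aligned to GRCm38 with GENCODE vM23 by Cell Ranger, hashtags were assigned to specimens, and cells above 15% mitochondrial or 45% ribosomal UMIs were removed; the submitters' notes also name Seurat 5.0.1. All 150064855 entries were whole numbers and 0 columns of per-sample values were left unused. Hashtag sequences were not used here. No doublet caller was run. The hashtag assignment of the authors can only remove doublets between specimens, so doublets within a specimen may remain.

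A cluster took the class of the marker list that stood highest above its average over clusters, given at least 3 markers and 50% of the list at 100 CPM, and stayed unnamed where its 10 leading genes held more markers of another class. The study calls cluster 5 macrophages. Counts were summed per tumor over the cells of a class or cluster. The sums were tested with edgeR 4.0.16 (TMM, filterByExpr, glmQLFit and glmQLFTest; R 4.3.3), and p-values were adjusted by Benjamini-Hochberg over all genes tested, with a threshold of 0.05. Single clusters used tumors with at least 20 cells of the cluster, clusters with at least 6 such tumors in each class, and the antibody as a term. DESeq2 1.42.0, other filters and scalings, the pool as a block, pools apart, and leaving out strains were alternatives; chosen after seeing the data were cluster 5 added, pools apart and the CC080 pair left out in the macrophage comparisons other than the mean over antibodies, the choices of cells, tumors and pools in T/NK cells, strains left out and the block in single clusters, and both for the lists. The tests were checked on simulated data. For the class tests the simulated tumors were drawn independently, without strain or pool effects. The check therefore does not cover the dependence between tumors that share a strain or a pool. Shares of cells were computed after thinning cells to 1000 UMIs, which left out 7883 cells (8.46%; 4.77% of macrophages, 19.2% of T/NK cells), 8.00% in responder isotype, 8.62% in responder aPD1, 8.06% in non-responder isotype and 5.92% in non-responder aPD1 tumors. Python 3.11.15 with numpy 2.4.6, pandas 2.3.3 and scipy 1.17.1 was used.

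The labels place an isotype and an aPD1 tumor of each of 2 strains in a pool. Deviations from group means correlated at 0.18 on average over 19 such pairs (14 above 0.1), at 0.10 between strains of a pool and at -0.01 between other tumors, so the pool was taken as a shared batch. The median cell had 3333.5 UMIs. Members and lists were chosen with earlier results of these data known. All members are named. Of the list genes, those called between classes (at most 12) and the 3 of smallest p per list between strains are named, apart from some not reported here, and for likeness the 3 highest r among genes of at least 10 CPM.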

Additional observations from a re-analysis of the deposited data

Results flagged for a closer look

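Within a class and antibody, a tumor was singled out when the gap to its nearest neighbor took up more of the group's range than Dixon's critical value allows. For normally distributed values chance does so in about 1 of 20 groups. The values here were CPM and each group mixed 3 strains, so that rate need not hold. Of 32 groups tested, 7 had such a tumor, each the highest of its group in macrophages. The CC036 aPD1 tumor of pool 10 had 77.17 CPM of Nos2, 200.8 CPM of Slc7a2 and 204.8 CPM of Acod1, above the other non-responder aPD1 tumors. The CC002 isotype tumor of pool 12, a sum over 93 macrophages, had 38.1 CPM of Arg2 (13 UMIs) and 85.0 CPM of Nos2 (29 UMIs), above the other responder isotype tumors. The CC036 isotype tumor of pool 8, a sum over 256 macrophages, had 61.49 CPM of Arg2, and the CC001 aPD1 tumor of pool 2 had 482.5 CPM of Ass1. What sets these tumors apart was not tested.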

How the results depend on the processing

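Of 1038 values that the alternatives gave for 118 results of single members, 905 kept their direction and side of the threshold, 62 changed sign, 36 passed only under the alternative, 34 no longer passed and 1 moved. Unless a setting shows it by its construction, the cause was not tested. Counts of genes called between classes in macrophages were 290 in pools 1 to 5, 303 in pools 8 to 12 and 4 with counts summed per strain, 3 against 3; in isotype tumors 64 with DESeq2, 10 in pools 8 to 12, 57 without the CC080 pair of shared identifier and 23 (without CC001) to 71 (without CC075) without a strain; in aPD1 tumors 143 in pools 1 to 5, 57 in pools 8 to 12 and 322 (without CC075) to 739 without a strain. For the difference of antibody effects DESeq2 called 1 gene. Between strains 868 genes were called in isotype and 3310 in aPD1 tumors. In T/NK cells 278 genes were called with no filter, 42 in pools 8 to 12 and 100 (without CC002) to 316 (without CC036 or CC080) without a strain. Member calls within single clusters ran from 1 (without CC075) to 8 without a strain. Neither the number of member tests nor the share of all genes called in those fits is given here. Whether these counts exceed the background was therefore not tested. The Arg1 share of cluster 27 was 66.5% without thinning and 61% at 2000 UMIs.

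With the pool as a block 63 genes were called between classes in isotype tumors, 1138 in aPD1 tumors, 1 for the antibody in responders, 1 for the difference of antibody effects, 1484 between strains, 301 between classes in T/NK cells, and 10 member results in single clusters. The 301 in T/NK cells were among 7219 genes tested. Block log2 values of opposite sign were 0.11 for Arg2 and 0.36 for Slc7a2 between classes, -0.073 for Acod1 under the antibody in non-responders (-0.026 with DESeq2), and 0.14 and 0.48 for Slc7a2 in clusters 5 and 26. The number of member tests behind the 10 member results in single clusters is not given here. Whether that count exceeds the background was therefore not tested. The block changed no other call than those given here and with the results.

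With counts summed per strain, values of opposite sign were Arg2 0.13 and Slc7a2 0.28. In pools 1 to 5 they were Arg2 0.47 and Slc7a2 0.20 over both antibodies, Nos2 -0.98, Ass1 -0.092 and Acod1 -0.185 in isotype tumors, and Odc1 -0.053 and Acod1 -0.181 for the antibody in non-responders. In pools 8 to 12 they were Arg2 -0.008 in aPD1 tumors, Nos2 0.70 and Ass1 -0.028 for the antibody in non-responders, and Ass1 0.002 in T/NK cells. With at least 50 cells they were Ass1 -0.21 in cluster 8, Slc7a2 0.19, 0.106 and 0.002 in clusters 17, 26 and 27, and Arg1 0.11 in cluster 19.

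Without a strain, values ran through 0 as follows. Between classes, Arg2 ran from -0.54 to 0.83 and Slc7a2 from -0.45 to 0.54; in isotype tumors, Arg2 from -0.996 to 0.12, Nos2 from -0.30 to 1.09, Ass1 from -0.12 to 0.53 and Acod1 from -0.055 to 0.98; in aPD1 tumors, Arg1 from -0.41 to 0.23 and Arg2 from -0.086 to 1.53. For the antibody, Ass1 ran from -0.075 to 0.82 in responders, and in non-responders Arg2 from -0.27 to 0.56, Nos2 from -1.12 to 1.03, Ass1 from -0.094 to 0.32, Slc7a2 from -1.046 to 0.024, Odc1 from -0.13 to 0.18 and Acod1 from -0.30 to 0.57; for the difference, Ass1 from -0.23 to 0.66 and Odc1 from -0.246 to 0.069. Ass1 ran from -0.88 to 0.22 in T/NK cells. In cluster 2 Slc7a2 ran from -0.17 to 0.55, Arg1 from -0.449 to 0.045 and Arg2 from -0.09 to 0.94; in cluster 5 Slc7a2 from -0.43 to 0.47; in cluster 19 Slc7a2 from -0.16 to 0.81 and Odc1 from -0.483 to 0.065; in cluster 21 Arg1 from -0.43 to 0.23; in cluster 26 Slc7a2 from -0.80 to 1.08 and Odc1 from -0.30 to 0.04. Without CC075, Acod1 in cluster 19 and Nos2 in clusters 5 and 21 could not be fitted, since they missed the filter on low counts. Without TMM 312 genes were higher and 514 lower in responder macrophages, with a shift of -0.06 in the median of all genes. In tumors of a class, macrophage sums held as few as 13 Arg2 UMIs and 14 Nos2 UMIs.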

Other observations

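The log2 ratio of Arg1 to Nos2 counts in macrophages, 2 enzymes that use the same substrate, was 6.20 ± 1.22 in non-responder isotype tumors (4.28 to 7.98, n = 9), 6.14 ± 1.09 in non-responder aPD1 tumors (4.00 to 7.41, n = 9), 4.8 ± 1.22 in responder isotype tumors (2.72 to 6.90, n = 10) and 3.90 ± 1.21 in responder aPD1 tumors (2.09 to 5.99, n = 10). The ranges overlapped. The ratio was formed after the values of both genes were seen, and it is given with no test.

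Hosts in no class had mean macrophage levels between the lowest and the highest classed strain for every member. B6 was at place 2 of the 8 strains for Acod1, Nos2, Ass1 and Odc1. B6 tumors (n = 6) had 149 ± 50.7 CPM of Acod1, 32.1 ± 20.1 of Nos2, 801 ± 447 of Arg1 and 96.5 ± 36.1 of Odc1. The 4 CC007 tumors had 117 ± 79.6, 24.6 ± 22.8, 724 ± 709 and 68.7 ± 31.1 CPM of the same genes, and the CC007 aPD1 tumor of 53 cells had no Nos2 or Arg2 UMI in its 27 macrophages.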
